A study of Mus musculus with 4 samples.

Results

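CD8 T cells were read for 10 genes of cytokine receptors and of the feedback on their signals: *Il7r*, *Il2ra*, *Il2rb*, *Il2rg*, *Il21r*, *Il4ra*, *Cish*, *Socs1*, *Socs3* and *Pim1*. The genes were chosen by name, 10 of the 12763 genes of the expression table, and all 10 were in the table. They were read in each of 4 single-cell libraries, and in tumour cells also by whether a cell had a value above 0 for *Tnfrsf9*, which encodes the costimulatory receptor CD137 (4-1BB), and for *Pdcd1*, which encodes the inhibitory receptor PD-1.

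Lethally irradiated C57BL/6 mice (8 Gray) received 5000000 bone marrow cells from Cd4creCd137fl/flROSA26tomato and Cd137fl/flROSA26tomato donors. After a check of reconstitution at 7 weeks they were given 1000000 cells of B16K1, a melanoma line, under the skin. CD8 T cells were taken 21 days later from the tumour and the spleen of 7 mice, purified, sorted by tomato fluorescence and pooled into 4 suspensions, which made the libraries tumour CD137 minus, tumour CD137 plus, spleen CD137 minus and spleen CD137 plus. The CD137 minus cells came from the donor whose Cre is driven by the Cd4 promoter, active in developing T cells, and the series design describes mixed chimaeras, in which cells of both donors share a host. The donors differed in Cre as well as in *Tnfrsf9*, so loss of CD137 and presence of Cre cannot be told apart here. The sample descriptions are at odds over which fraction was tomato positive, and the groups follow the CD137 status in the sample titles. Each group was 1 library with no mouse named for a cell, so no comparison between groups has a replicate or a test, and all intervals given cover counting error only.

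Signals of IL-2, IL-4, IL-7, IL-15 and IL-21 reach T cells through receptors that share the common gamma chain encoded by *Il2rg*, each paired with private chains. The bound receptors activate JAK kinases, which phosphorylate STAT transcription factors. STATs in turn induce genes such as *Cish* and *Socs1*, whose products bind receptors or JAK kinases and damp the signal, and *Pim1*, a kinase that favours survival and growth. In CD8 T cells IL-7 receptor is a textbook mark of resting naive and long-lived memory cells and is lowered by activation, while the IL-2 receptor alpha chain appears after activation.

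STAT factors bind DNA at the palindrome TTCNNNGAA, and windows around the annotated gene starts were read for these letters to place the members beside the pathway. RefSeq windows on GRCm38.p6, each from 250 bases before to 50 bases after a start, were at hand for 9 of the 10 members (all but *Il2rb*), with 2 windows for *Pim1*. The motif was in the windows of *Cish*, *Il7r* and *Socs3*, and it was not in those of *Il2ra*, *Il2rg*, *Il21r*, *Il4ra*, *Socs1* and *Pim1*. Members with and without the motif differed in level between the cells described below, and a link between motif and level was not tested. The 3 stretches are shown, 5′ to 3′ on the strand of the gene with the motif in capitals.
Cish, chr9:107296654-107296683, plus strand: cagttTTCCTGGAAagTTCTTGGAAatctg
Il7r, chr15:9530000-9530029, minus strand: agttcaggagcTTCAGGGAAtaccaagatg
Socs3, chr11:117969502-117969531, minus strand: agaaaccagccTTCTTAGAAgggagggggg
*Cish* carried a pair of motifs, which began 0 and 11 bases from the RefSeq start. The single motif of *Il7r* began at -142 and that of *Socs3* at -154. Of all 32851 windows of the same length, 8.30% held at least 1 motif and 0.457% held 2 or more, on either strand, which are the same letters. A match is a description of the sequence and not a measured binding site.

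The libraries held 1262 tumour CD137 minus cells, 2766 tumour CD137 plus cells, 2464 spleen CD137 minus cells and 473 spleen CD137 plus cells. The deposited values were natural logs of 1 plus a whole number, here called the corrected count because its sum per cell fell in a narrow range within each library. Cell totals ran from 3632 to 5712, 2949 to 4588, 3110 to 4884 and 4096 to 5872 corrected counts in those libraries in the same order. A level is the sum over cells scaled to 1000000 corrected counts (CPM), and a share is the percentage of cells with a value above 0, with an exact Clopper-Pearson 95% interval. Because totals differed, shares are also given as the expectation after each cell is thinned to 2900 corrected counts. *Tnfrsf9* was at 57.5 CPM in tumour CD137 minus cells, against 421 CPM in tumour CD137 plus cells, and at 2.34 CPM in spleen CD137 minus cells, against 16.2 CPM in spleen CD137 plus cells. The descriptions do not say which exons were removed, so RNA left in the CD137 minus cells checks nothing about the protein. *Cd8a* or *Cd8b1* had a value in 99.1 to 99.3% of the cells of every library, and 19 barcodes occurred in more than 1 library. The sort held no cell type that should lack these receptors, so a background from free RNA was not tested.

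*Cish*, *Socs1*, *Socs3*, *Pim1* and *Il21r* were higher in the tumour than in the spleen in both CD137 states, *Il7r* was lower, and *Il2ra* was close to undetected outside the tumour. *Il2rg* lay within 622 to 714 CPM everywhere. *Il2rb* and *Il4ra* differed within the spleen by CD137 status. Between the tumours the difference in *Il4ra* was small and of opposite sign, and its shares were close after thinning.

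**Figure D1:**
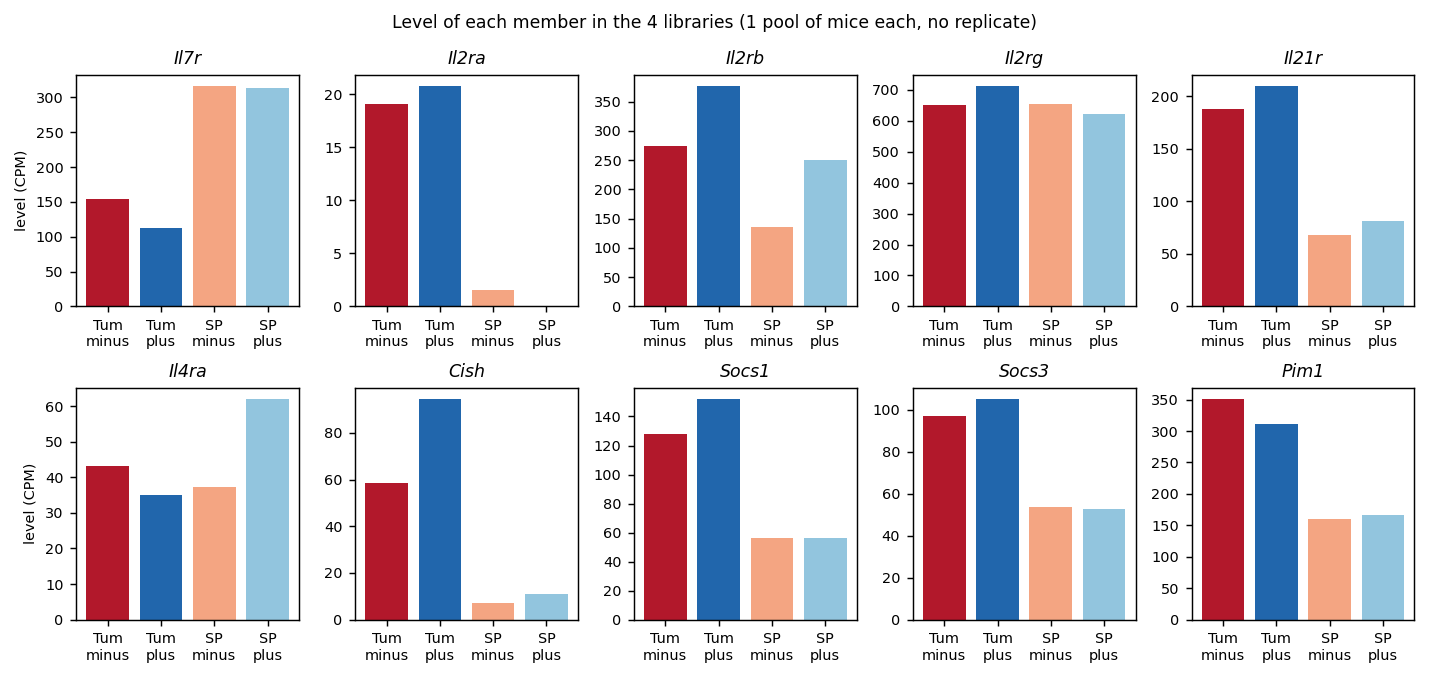
Level of each of the 10 genes in the 4 libraries, in CPM on axes that start at 0, with 1 bar per library (Tum, tumour; SP, spleen; minus and plus, CD137 status) and no error bar because each is 1 pool. *Cish*, *Socs1*, *Socs3*, *Pim1* and *Il21r* stand higher in both tumour bars, *Il7r* in both spleen bars, and *Il2rg* is nearly level.

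*Il7r* encodes the alpha chain of the IL-7 receptor, which keeps naive and memory T cells alive. It was at 154.5 CPM in tumour CD137 minus, 113.2 CPM in tumour CD137 plus, 317 CPM in spleen CD137 minus and 314.2 CPM in spleen CD137 plus cells. The shares of cells with a value were 33.6% (31.0 to 36.3), 22.8% (21.3 to 24.5), 55.6% (53.6 to 57.5) and 64.3% (59.8 to 68.6) in the same order, and 25.9%, 19.6%, 47.7% and 50.2% after thinning. Both spleens thus stood above both tumours in level, and the CD137 minus tumour stood above the CD137 plus tumour. The spleen levels were close to each other, while the spleen shares ran the other way and no order is read from them.

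*Il2ra* encodes CD25, the chain that makes the IL-2 receptor one of high affinity. It was at 19.05 CPM from 115 corrected counts in tumour CD137 minus cells and at 20.8 CPM from 214 in tumour CD137 plus cells, and at 1.53 CPM from 15 in spleen CD137 minus cells. It was listed at 0 in the spleen CD137 plus library. The table nearly always lists a gene at 0 where under 5 cells of the library had it. This 0 can therefore stand for up to 4 of the 473 cells, and no interval is given for it. The tumour shares, 5.71% (4.49 to 7.13) in CD137 minus and 6.15% (5.28 to 7.11) in CD137 plus cells, had overlapping intervals.

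*Il2rb* encodes CD122, the signalling chain of the IL-2 and IL-15 receptors. Its level was 274 CPM in tumour CD137 minus, 378 CPM in tumour CD137 plus, 135 CPM in spleen CD137 minus and 251 CPM in spleen CD137 plus cells. The shares were 55.0% (52.2 to 57.8), 58.6% (56.7 to 60.4), 32.3% (30.4 to 34.2) and 54.8% (50.1 to 59.3), or 42.9%, 52.9%, 25.8% and 41.8% after thinning. CD137 minus cells were thus below CD137 plus cells in each tissue, and spleen CD137 minus was the lowest of the 4.

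*Il2rg*, the shared gamma chain, was at 651 CPM in tumour CD137 minus, 714 CPM in tumour CD137 plus, 654 CPM in spleen CD137 minus and 622 CPM in spleen CD137 plus cells. It had a value in 89.3 to 94.5% of cells, or 79.7 to 83.6% after thinning, and no ordering of the libraries is drawn from so narrow a range. In the annotation of mm10 an overlapping gene on the same strand, Gm20489, spans the whole of *Il2rg*, so reads could have been split between them.

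*Il21r*, the private chain for IL-21, was at 188 CPM in tumour CD137 minus, 210 CPM in tumour CD137 plus, 68.1 CPM in spleen CD137 minus and 81.1 CPM in spleen CD137 plus cells. Its shares were 41.5% (38.8 to 44.3), 42.4% (40.6 to 44.3), 21.9% (20.3 to 23.6) and 28.1% (24.1 to 32.4). The tumour intervals overlapped one another and lay above those of both spleens.

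*Il4ra*, the alpha chain for IL-4, was at 43.1 CPM in tumour CD137 minus, 35.1 CPM in tumour CD137 plus, 37.1 CPM in spleen CD137 minus and 62.0 CPM in spleen CD137 plus cells. The shares were 15.4% (13.4 to 17.5), 11.3% (10.2 to 12.6), 13.1% (11.8 to 14.5) and 23.5% (19.7 to 27.6), or 10.2%, 8.91%, 9.68% and 14.8% after thinning. Spleen CD137 plus cells stood apart on the high side, and the other libraries were close after thinning.

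*Cish* encodes CIS, a feedback protein induced through STAT5 that also restrains T cell receptor signals. It was at 58.6 CPM from 354 corrected counts in tumour CD137 minus, 94.5 CPM from 971 in tumour CD137 plus, 7.22 CPM from 71 in spleen CD137 minus and 10.9 CPM from 27 in spleen CD137 plus cells. Its shares were 18.6% (16.5 to 20.9), 22.5% (20.9 to 24.1), 2.56% (1.97 to 3.26) and 5.07% (3.28 to 7.46), or 12.7%, 18.7%, 1.87% and 2.95% after thinning. Every tumour value was several times every spleen value, and in the tumour the CD137 minus library was the lower. The spleen values rest on 71 and 27 corrected counts, and no order is read from them.

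*Socs1*, an inhibitor of JAK kinases downstream of interferon and gamma-chain cytokines, was at 128 CPM in tumour CD137 minus, 152 CPM in tumour CD137 plus, 56.6 CPM in spleen CD137 minus and 55.9 CPM in spleen CD137 plus cells. *Socs3*, best known as the brake on IL-6 family signals, was at 96.9, 105, 53.8 and 52.7 CPM in the same order. *Pim1* was at 351, 310, 160 and 167 CPM. For all 3 the tumours were high, the spleens low, and the spleens nearly equal. The tumour shares of *Socs3*, 29.4% in CD137 minus and 23.4% in CD137 plus cells, ran against its CPM, and after thinning they were 20.7% and 19.7%, so no order between the tumours is read from them.

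Ratios are given as log2 of the first group over the second after 1 CPM was added to each level, a scale that understates differences of low genes. A gene counted as measured in a comparison if it reached 20 CPM and a value in 5% of cells in 1 of the groups and had a value in both, and as higher or lower if its log2 ratio reached 0.5 in size. A ratio below that size is given as a value and is not taken to show that groups were alike. The share of all measured genes that passed the same size stands beside each count, since it says how common such a ratio was between the 2 pools.

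**Figure D2:**
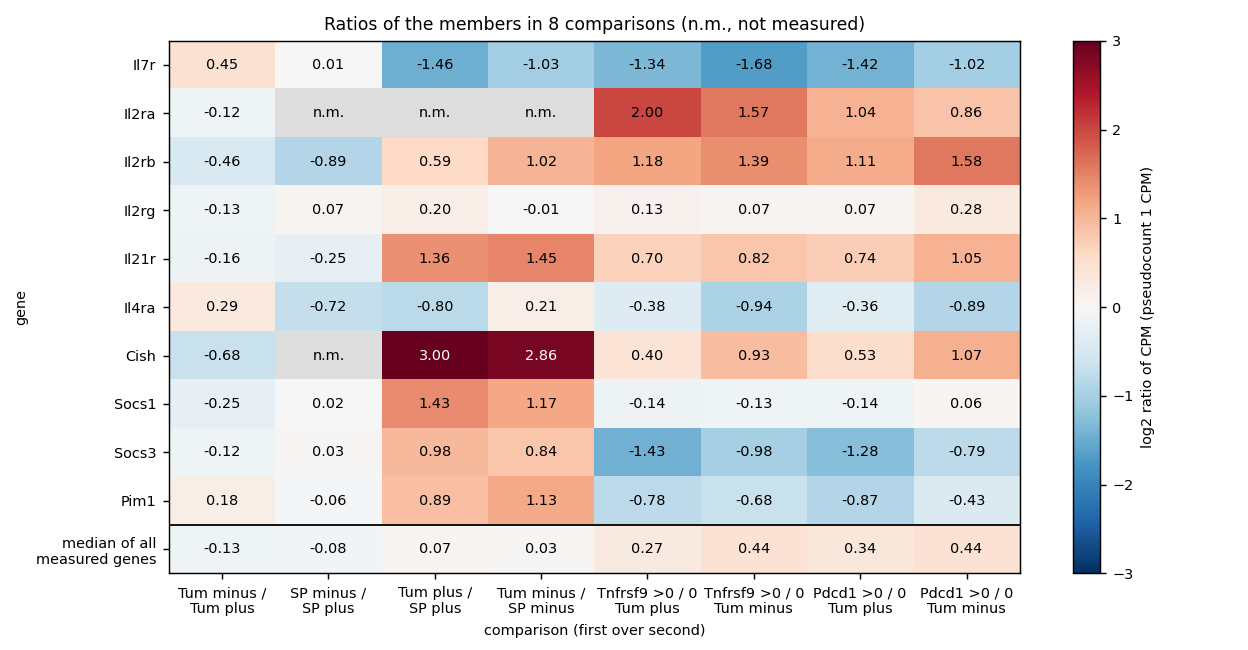
Log2 ratio of CPM, with 1 CPM added, for the 10 genes in 8 comparisons, first group over second, with the median of all measured genes in the bottom row (n.m., not measured). The tissue comparisons hold the highest ratios, 3.00 and 2.86 for *Cish*, and the 4 comparisons by *Tnfrsf9* or *Pdcd1* share negative values of *Il7r*, *Il4ra*, *Socs3* and *Pim1*.

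In the tumour, CD137 minus cells had less *Cish* than CD137 plus cells, more *Il7r* by a ratio just under the size used, and ratios under that size for the other members. All 10 members were measured, and 1 was called, *Cish* at -0.68. Of 5353 measured genes 7.14% were called, 5.44% as lower and 1.70% as higher, with a median ratio of -0.13. *Il7r* had a ratio of 0.45, at the 97.8th percentile of the measured genes, and 0.58 relative to their median, and in cells with at least 1000 genes it was 0.52. *Cish* was at the 1.6th percentile and at -0.55 relative to the median. The remaining ratios were -0.46 for *Il2rb*, 0.29 for *Il4ra*, -0.25 for *Socs1*, 0.18 for *Pim1*, -0.16 for *Il21r*, -0.13 for *Il2rg*, and -0.12 for both *Il2ra* and *Socs3*. After cells with neither *Cd8a* nor *Cd8b1* were dropped, and likewise cells with any of 7 genes of B cells, myeloid cells, plasmacytoid dendritic cells or melanoma, *Cish* was at -0.70 and *Il7r* at 0.44.

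The same libraries were compared in cells with *Pdcd1* and in cells without it. Among cells with *Pdcd1* above 0, *Il7r* was at 95.9 CPM in 514 CD137 minus cells, against 64.7 CPM in 1527 CD137 plus cells. That ratio of 0.56 was the single call among 10 measured members, where 6.43% of all genes were called (3.44% as higher, 2.99% as lower) and the median was -0.02. It was 0.15, no longer past the size, if *Pdcd1* of 2 or more was asked for, and *Il4ra*, at -0.13 here, was then at -0.55 and the single call. *Cish* in the same cells was at 85.3 CPM in CD137 minus, against 110 CPM in CD137 plus cells, a ratio of -0.36.

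Among cells with *Pdcd1* at 0, *Cish* was at 40.1 CPM in 748 CD137 minus cells, against 75.6 CPM in 1239 CD137 plus cells, a ratio of -0.90. *Il2rb* was at 150 CPM in the CD137 minus cells, against 230 CPM in the CD137 plus cells, a ratio of -0.61. These were the 2 calls among 9 measured members, where 10.7% of all genes were called (9.09% as lower) and the median was -0.13. Relative to that median *Cish* stayed past the size, *Il2rb* did not, and *Il4ra* at 0.40 reached 0.53. *Il7r* in these cells was at 195 CPM in CD137 minus, against 174 CPM in CD137 plus cells, a ratio of 0.16. These comparisons share their libraries with the pooled one, and the difference between the *Pdcd1* strata was not tested.

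In the spleen, CD137 minus cells had less *Il2rb* and less *Il4ra* than CD137 plus cells, with ratios of -0.89 and -0.72. These were the 2 calls among 8 measured members, where 11.7% of all genes were called (10.3% as lower, 1.41% as higher) and the median was -0.08. The other ratios were -0.25 for *Il21r*, 0.07 for *Il2rg*, -0.06 for *Pim1*, 0.03 for *Socs3*, 0.02 for *Socs1* and 0.01 for *Il7r*. *Il2ra* and *Cish* were too low to be measured. The spleen pools differed in makeup, since cells with *Ccl5*, a chemokine of memory and effector cells, were 1186 of 2464 CD137 minus cells, against 327 of 473 CD137 plus cells. Within *Ccl5* cells *Il2rb* was at 213 CPM in CD137 minus, against 335 CPM in CD137 plus cells. In a pooled library, fewer cells that use a gene and less RNA per cell cannot be told apart from the level alone.

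Tumour CD137 plus cells differed from spleen CD137 plus cells in 8 of 9 measured members, 6 higher and 2 lower. *Cish* was higher by 3.00, *Socs1* by 1.43, *Il21r* by 1.36, *Socs3* by 0.98, *Pim1* by 0.89 and *Il2rb* by 0.59, while *Il7r* was at -1.46 and *Il4ra* at -0.80. The ratio of *Il2rg* was 0.20. Such ratios were common between these tissues: 41.8% of all measured genes were called, 24.2% as higher and 17.5% as lower, with a median of 0.07.

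Tumour CD137 minus cells differed from spleen CD137 minus cells in 7 of 9 measured members, 6 higher and 1 lower. *Cish* was higher by 2.86, *Il21r* by 1.45, *Socs1* by 1.17, *Pim1* by 1.13, *Il2rb* by 1.02 and *Socs3* by 0.84, and *Il7r* was at -1.03. *Il4ra* was at 0.21 and *Il2rg* at -0.01. Here 36.5% of all measured genes were called, 22.0% as higher and 14.5% as lower, with a median of 0.03. The pair of tissue comparisons shares no library, but in mixed chimaeras cells of both donors share hosts, so the comparisons are not independent. The 6 genes called higher were the same in both. The share of all measured genes called higher in both was not counted. The thinned share of *Pim1*, 38.8% in tumour CD137 plus and 32.5% in spleen CD137 plus cells, followed its CPM, whereas the unthinned shares of 43.2% and 46.3% did not.

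Tumour cells with *Tnfrsf9* had far less *Il7r* and *Socs3* and less *Pim1* than tumour cells without it, and more *Il2ra*, *Il2rb* and *Il21r*, in both CD137 states. Part of the *Il2ra* difference in CD137 minus cells came from a class of 28 cells, as given below. In the CD137 plus library *Tnfrsf9* was above 0 in 1252 of 2766 cells (45.3%), and in the CD137 minus library in 200 of 1262 (15.8%). Cells with *Tnfrsf9* also had more genes with a value, a median of 1579.5 with it and 1181 without it in CD137 plus cells, and 2014.5 with it and 1373.5 without it in CD137 minus cells. The median ratio of all measured genes was above 0, at 0.27 in CD137 plus and 0.44 in CD137 minus cells, and ratios relative to it are given too. The part of gene number in that shift was not tested. In cells of at least 1000 genes *Il7r* was at -1.65 in CD137 plus and -1.67 in CD137 minus cells, *Socs3* at -1.51 and -0.97, *Il2rb* at 1.27 and 1.37, and *Il2ra* at 1.97 and 1.502. Whether gene number had a part in these ratios was not tested either.

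In CD137 plus tumour cells *Il7r* was at 61.6 CPM with *Tnfrsf9* and 157.6 CPM without it, a ratio of -1.34 and -1.61 relative to the median. *Socs3* was at 54.5 CPM with *Tnfrsf9* and 149 CPM without it (-1.43, relative -1.71). *Pim1* was at 223 CPM with *Tnfrsf9* and 385 CPM without it (-0.78, relative -1.06). A receptor of resting cells, a feedback gene and a kinase gene were thus the members lower in cells with *Tnfrsf9*.

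On the other side *Il2ra* was at 35.5 CPM with *Tnfrsf9* and 8.15 CPM without it (2.00, relative 1.73). *Il2rb* was at 539 CPM with *Tnfrsf9* and 238 CPM without it (1.18, relative 0.91), and *Il21r* at 265 CPM with it and 163 CPM without it (0.70, relative 0.43). The ratios of *Cish*, *Il4ra*, *Socs1* and *Il2rg* were 0.40, -0.38, -0.14 and 0.13. In all 3 members were higher and 3 lower, where 26.5% of all genes were called higher and 4.82% lower, 31.3% together. Relative to the median 2 were higher and 4 lower, *Il21r* leaving and *Il4ra* at -0.65 joining. Higher ratios were thus common among all genes in this comparison and lower ones uncommon.

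In CD137 minus tumour cells *Il7r* was at 53.9 CPM with *Tnfrsf9* and 174.6 CPM without it (-1.68, relative -2.12). *Socs3* was at 52.9 CPM with *Tnfrsf9* and 105.6 CPM without it (-0.98, relative -1.43), and *Pim1* at 234 CPM with it and 375 CPM without it (-0.68, relative -1.12). *Il4ra* was at 23.9 CPM with *Tnfrsf9* and 46.9 CPM without it (-0.94, relative -1.38). All of the members called lower in CD137 plus cells were lower here as well, with *Il4ra* beside them. The share of all measured genes called lower in both libraries was not counted, so nothing is read from this overlap.

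*Il2ra* in CD137 minus cells was at 43.9 CPM with *Tnfrsf9* and 14.1 CPM without it (1.57, relative 1.13), and *Il2rb* at 568 CPM with it and 216 CPM without it (1.39, relative 0.95). The *Il2ra* level with *Tnfrsf9* includes 28 cells without *Pdcd1*, which had it at 130 CPM. In the 172 cells with *Tnfrsf9* and *Pdcd1* it was at 31.0 CPM, against 23.7 CPM in 342 cells with *Pdcd1* alone. *Cish* was at 97.8 CPM with *Tnfrsf9* and 50.8 CPM without it (0.93, relative 0.49), and *Il21r* at 295 CPM with it and 167 CPM without it (0.82, relative 0.38). The count was 4 higher and 4 lower, where 45.0% of all genes were called higher and 5.35% lower, 50.4% together, and relative to the median it was 2 higher and 5 lower, with *Socs1* at -0.57.

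By *Pdcd1* the members split in nearly the same way. In CD137 plus tumour cells *Il7r* was at 64.7 CPM with *Pdcd1* and 174 CPM without it (-1.42, relative -1.75), *Socs3* at 64.0 CPM with it and 157 CPM without it (-1.28, relative -1.62), and *Pim1* at 226 CPM with it and 416 CPM without it (-0.87, relative -1.21). *Il2rb* was at 495 CPM with *Pdcd1* and 230 CPM without it (1.11, relative 0.77). *Il2ra* was at 27.3 CPM with *Pdcd1* and 12.7 CPM without it (1.04, relative 0.70). *Il21r* at 0.74 and *Cish* at 0.53 completed 4 higher and 3 lower members, where 31.7% of all genes were called higher and 4.21% lower, 35.9% together, with a median of 0.34. Relative to that median 2 were higher and 4 lower, and with equal weight per cell the ratio of *Cish* was 0.48.

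In CD137 minus tumour cells *Il2rb* was at 453 CPM with *Pdcd1* and 150 CPM without it (1.58, relative 1.14), and *Il7r* at 95.9 CPM with it and 195 CPM without it (-1.02, relative -1.46). *Cish* was at 85.3 CPM with *Pdcd1* and 40.1 CPM without it (1.07, relative 0.63), *Il21r* at 271 CPM with it and 131 CPM without it (1.05, relative 0.60), and *Il2ra* at 26.3 CPM with it and 14.0 CPM without it (0.86, relative 0.42). *Il4ra* was lower at -0.89 and *Socs3* at -0.79, and *Pim1* at -0.43 was short of the size. The count of 4 higher and 3 lower, 3 and 4 relative to the median of 0.44, stood beside 44.5% of all genes called higher and 4.40% lower, 48.9% together.

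*Tnfrsf9* and *Pdcd1* were often in the same cells, so tumour cells were also split by both at once. The 4 classes had 172, 28, 342 and 720 CD137 minus cells and 973, 279, 554 and 960 CD137 plus cells, in the order both, *Tnfrsf9* alone, *Pdcd1* alone, and neither. *Il7r* in CD137 plus cells was at 52.9, 93.6, 86.7 and 197 CPM across these classes, and *Socs3* at 45.7, 86.7, 98.3 and 177 CPM. Both were lowest in cells with both genes and highest in cells with neither, and either gene alone gave levels between. *Il2rb* ran the other way, at 575, 407, 344 and 179 CPM.

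*Il2ra* in CD137 plus cells followed *Tnfrsf9* more than *Pdcd1*, at 35.0 CPM with both, 37.4 CPM with *Tnfrsf9* alone, 12.6 CPM with *Pdcd1* alone and 5.7 CPM with neither. *Cish* was at 111, 102, 107 and 67.9 CPM and *Pim1* at 195, 327, 285 and 442 CPM. *Cish* was therefore about level in 3 classes and lower in cells with neither gene. *Socs1* was at 144, 146, 149 and 165 CPM, the narrowest range of the feedback genes.

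In CD137 minus cells *Il7r* was at 49.3, 84.2, 121 and 199 CPM across the same classes, and *Il2rb* at 586, 444, 380 and 139 CPM. As in CD137 plus cells, *Il7r* was lowest with both genes and highest with neither, and *Il2rb* the reverse. *Socs3* was at 45.9, 99.5, 79.3 and 118 CPM and *Cish* at 93.0, 130, 81.2 and 36.7 CPM. The class with *Tnfrsf9* alone held 28 cells, and its *Il2ra* level of 130 CPM came from 17 corrected counts, so it is set aside. In the other classes *Il2ra* was at 31.0 CPM with both genes, 23.7 CPM with *Pdcd1* alone and 9.61 CPM with neither. It thus differed more by *Pdcd1* than by *Tnfrsf9* among these classes, unlike in CD137 plus cells. In the class with neither gene *Cish* was at 36.7 CPM in CD137 minus, against 67.9 CPM in CD137 plus cells.

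**Figure D3:**
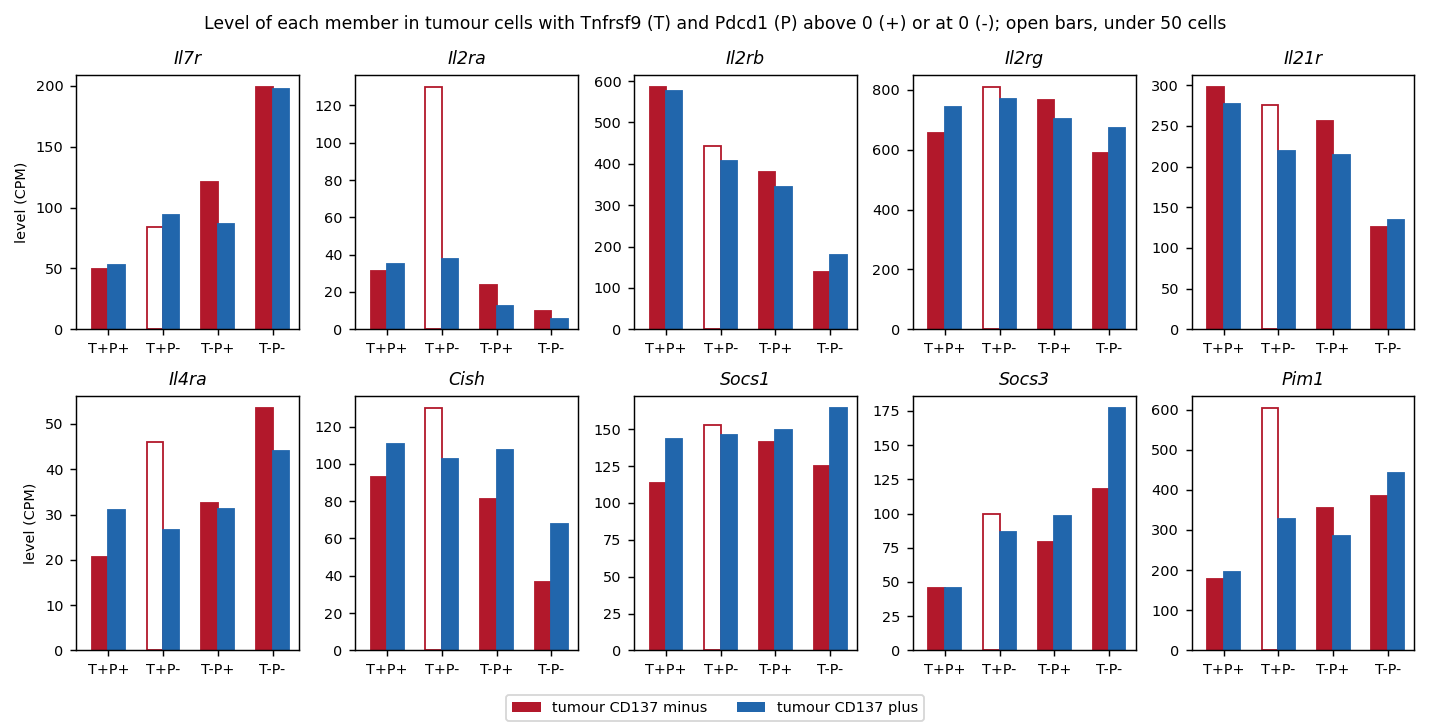
Level of each of the 10 genes in tumour cells split by *Tnfrsf9* (T) and *Pdcd1* (P) above 0 (+) or at 0 (-), in CPM on axes that start at 0, with CD137 minus left of CD137 plus and open bars for the class of 28 cells. In each library *Il7r* and *Socs3* are lowest in cells with both genes and highest in cells with neither, and *Il2rb* and *Il21r* are highest in cells with both and lowest in cells with neither.

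With *Pdcd1* held above 0 in CD137 plus tumour cells, 973 cells with *Tnfrsf9* were set against 554 without it. *Il2ra* at 1.40 and *Il2rb* at 0.74 were higher, and *Socs3* at -1.09, *Il7r* at -0.70 and *Pim1* at -0.55 were lower, where 21.1% of all genes were called (17.1% as higher, 4.01% as lower) and the median was 0.17. The median number of genes was 1692 in cells with *Tnfrsf9* and 1158 in cells without it. *Cish* was at 0.04 in this comparison.

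With *Pdcd1* at 0, 279 CD137 plus tumour cells with *Tnfrsf9* were set against 960 without it, and here the median number of genes was close, 1184 with *Tnfrsf9* and 1188 without it. *Il2ra* at 2.53, *Il2rb* at 1.18, *Il21r* at 0.71 and *Cish* at 0.59 were higher, and *Il7r* at -1.07, *Socs3* at -1.02 and *Il4ra* at -0.71 were lower, where 28.7% of all genes were called (20.3% as higher, 8.44% as lower) and the median was 0.15. Relative to that median the count was 3 higher and 4 lower, *Cish* at 0.44 leaving and *Pim1* at -0.58 joining. *Il2ra*, *Il2rb*, *Il7r* and *Socs3* passed the size in the same direction with *Pdcd1* above 0 and at 0. The part of gene number in these ratios was not tested.

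Gates on other genes showed the same receptors in states that the *Tnfrsf9* and *Pdcd1* split does not name. The gates overlap, and their own genes are read at the same depth as the members. Cells with *Pdcd1* and *Havcr2* (TIM-3), a pair used to mark exhausted cells, numbered 96 in CD137 minus and 287 in CD137 plus tumours. They had 44.2 CPM of *Il7r* in CD137 minus and 31.3 CPM in CD137 plus cells, and 635 CPM of *Il2rb* in CD137 minus and 643 CPM in CD137 plus cells. Among the gates shown these held the lowest *Il7r* and the highest *Il2rb*.

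Cells with *Pdcd1* and *Tcf7* but no *Havcr2*, a pattern used for progenitor-like exhausted cells, numbered 68 in CD137 minus and 150 in CD137 plus tumours. *Il7r* there was at 187 CPM in CD137 minus and 126 CPM in CD137 plus cells, *Il2rb* at 239 CPM in CD137 minus and 293 CPM in CD137 plus cells, and *Cish* at 39.8 CPM in CD137 minus and 68.2 CPM in CD137 plus cells. They had more *Il7r* and less *Il2rb* than the *Havcr2* cells in both libraries.

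*Il2ra* in cells with *Xcl1* and *Tnfrsf4* (OX40) was at 39.96 CPM from 29 corrected counts in 142 CD137 minus cells and at 69.1 CPM from 92 in 338 CD137 plus cells. Cells with *Pdcd1* and *Havcr2* had it at 39.98 CPM from 19 in CD137 minus and 22.4 CPM from 25 in CD137 plus cells. *Cish* in cells with *Xcl1* and *Tnfrsf4* was at 112 CPM in CD137 minus and 141 CPM in CD137 plus cells. Cells with *Gzmk* or *Klrg1* had *Cish* at 99.7 CPM in CD137 minus and 123 CPM in CD137 plus cells. Cells with at least 2 of 7 cell cycle genes had it at 105.5 CPM in CD137 minus and 110 CPM in CD137 plus cells. In each of the 6 gates plotted, *Cish* was lower in the CD137 minus than in the CD137 plus tumour cells, by a margin that was narrow in the cell cycle gate.

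**Figure D4:**
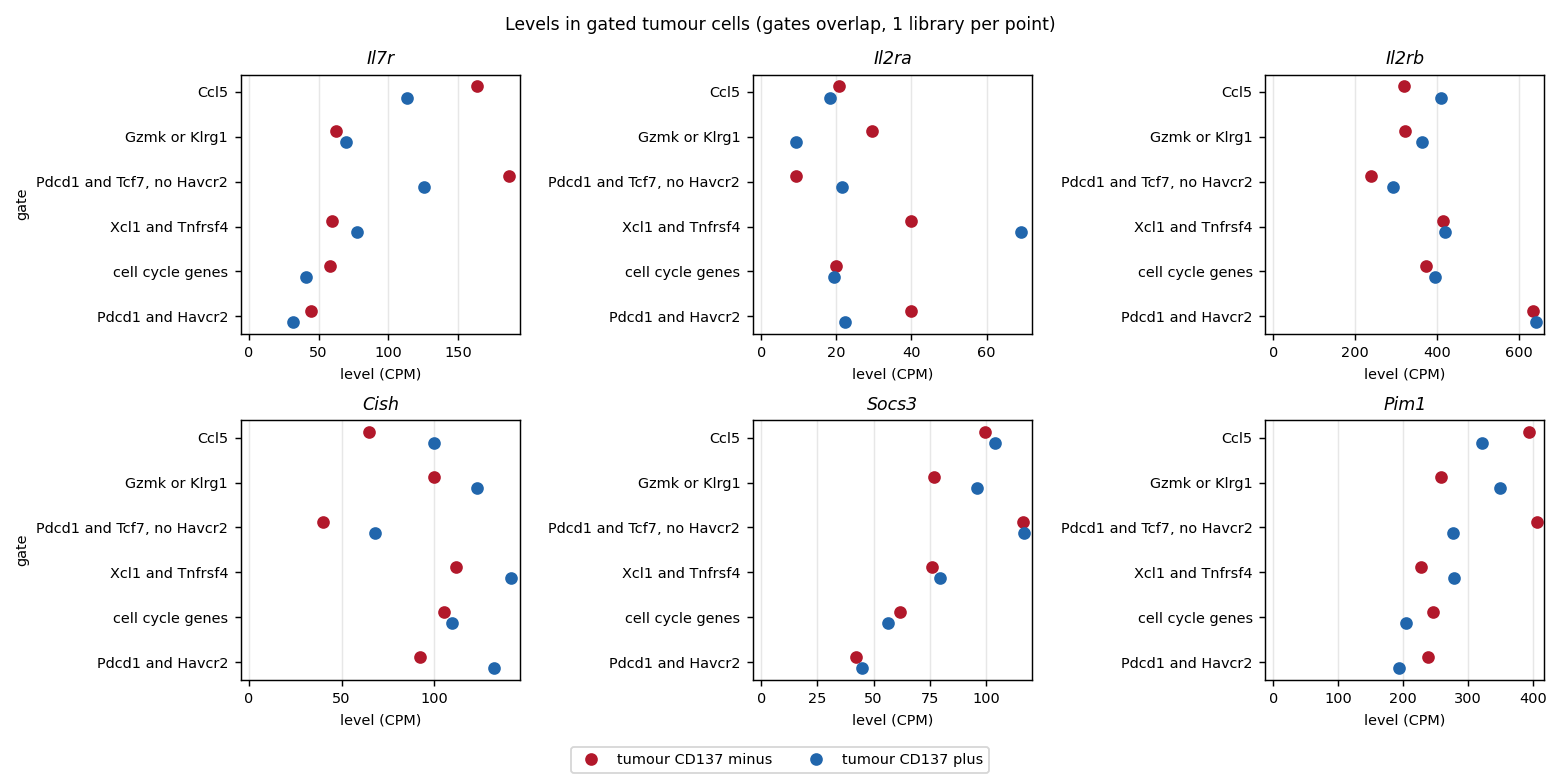
Level in CPM of 6 of the genes in tumour cells of 6 gates named by their genes, with 1 point per library and gate (CD137 minus above CD137 plus within a gate). *Il7r* is lowest and *Il2rb* highest in cells with *Pdcd1* and *Havcr2*, and *Cish* is lowest in cells with *Pdcd1* and *Tcf7* but no *Havcr2*.

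*Il7r* and *Il2rb* were read in the same cells because their products bind different cytokines. After thinning, cells with *Il2rb* and no *Il7r* were 33.8% of tumour CD137 minus, 44.8% of tumour CD137 plus, 12.8% of spleen CD137 minus and 19.98% of spleen CD137 plus cells. Cells with *Il7r* and no *Il2rb* were 16.8%, 11.5%, 34.7% and 28.4% in the same order. Cells with both were 9.11%, 8.14%, 13.0% and 21.8%. Cells with neither were 40.3%, 35.6%, 39.5% and 29.8%. *Il2rb* alone was thus more common than *Il7r* alone in the tumours and less common in the spleens. Spleen CD137 plus cells had the highest share with both.

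With *Tnfrsf9* above 0, *Il2rb* alone reached 65.4% of CD137 minus tumour cells after thinning, against 27.8% with *Tnfrsf9* at 0. In CD137 plus tumour cells it was 62.4% with *Tnfrsf9* above 0, against 30.3% at 0. Cells with *Pdcd1* and *Havcr2* stood at 70.7% in CD137 minus and 71.3% in CD137 plus tumours. Unthinned, these cells were at 80.2% and 75.6%, so the order of the libraries there turns with depth and none is read.

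**Figure D5:**
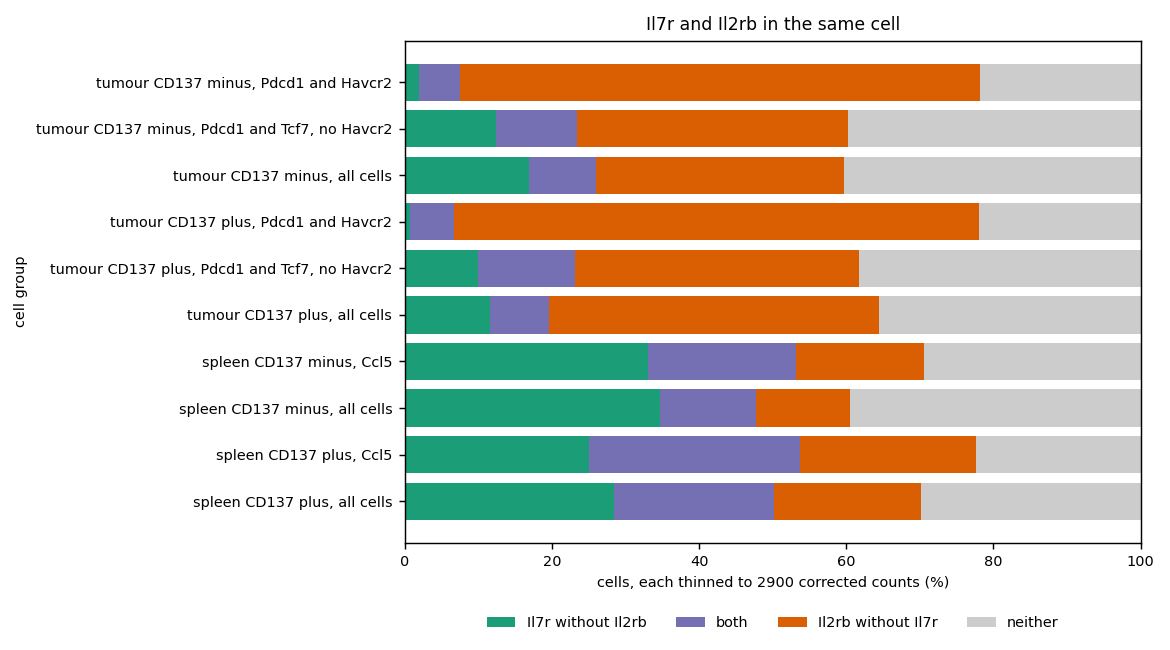
Percentage of cells with *Il7r* without *Il2rb*, both, *Il2rb* without *Il7r*, or neither, expected after each cell is thinned to 2900 corrected counts, for all cells of each library and for gates named by their genes. *Il2rb* without *Il7r* fills 70.7% and 71.3% of the tumour cells with *Pdcd1* and *Havcr2*, and spleen bars are mostly *Il7r* or neither.

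Pairs of members were also compared within a library, as the share of cells with the second gene among cells with the first and among the rest. *Cish* had a value in 45.8% (34.0 to 58.0) of CD137 minus tumour cells with *Il2ra*, against 17.0% of those without it. In CD137 plus tumour cells it was 42.9% (35.4 to 50.7) with *Il2ra*, against 21.1% without it. The joint share was 2.46 times the product of the single shares in CD137 minus and 1.91 times in CD137 plus cells, and 1.74 and 1.61 times among cells above the median number of genes. Cells with *Il2ra* had more genes with a value, a median of 2026 with it and 1415 without it in CD137 minus cells, and 1744.5 with it and 1286 without it in CD137 plus cells.

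*Socs3* had a value in 38.0% of CD137 minus tumour cells with *Il7r*, against 25.1% without it, and in 35.0% of CD137 plus tumour cells with *Il7r*, against 19.9% without it. That was 1.29 and 1.497 times the product of the shares, 1.42 and 1.51 times in the deeper cells, and 1.04 and 1.08 times in the spleens. *Il2rb* had a value in 47.2% of CD137 minus cells with *Il7r*, against 58.9% without it, and in 48.1% of CD137 plus cells with *Il7r*, against 61.7% without it. Its joint share was 0.86 and 0.82 times the product in the tumours and 1.07 and 1.03 times in the spleens. These ratios describe sparse values within single libraries, and they carry no test.

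Across 10 cell groups, the 2 spleens and the 4 *Tnfrsf9* by *Pdcd1* classes of each tumour library, the levels of the members were set beside those of 4879 other genes. The groups share libraries and depth and 1 has 28 cells, so Pearson's r of log2 levels is given as a description with no test. Genes most like *Cish* were *Arf4* (0.988), *Nr4a2* (0.987) and *Gem* (0.987), and those most like *Socs1* were *Cks2* (0.987), *Nr4a1* (0.986) and *Oser1* (0.985). *Socs3* was most like *Jun* (0.973), *Rhob* (0.944) and *Fos* (0.943), and *Pim1* most like *Ftl1* (0.954), *Nfkbiz* (0.937) and *Fos* (0.923). *Fos* was thus among the 3 nearest genes of both *Socs3* and *Pim1*.

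Of the receptors, *Il7r* was most like *Rasgrp2* (0.992), *Epsti1* (0.983) and *Pde2a* (0.976), and *Il2ra* most like *Cks1b* (0.982), *Calr* (0.980) and *Xcl1* (0.972). *Il2rb* was most like *Rnh1* (0.977), *Il10ra* (0.975) and *Lrmp* (0.974), and *Il21r* most like *Nrp1* (0.997), *Sh2d2a* (0.997) and *Eea1* (0.995). *Il2rg* was most like *Ube2e1* (0.947) and *Cct2* (0.934), and *Il4ra* most like *Xrn2* (0.912), *Fcgrt* (0.906) and *Clec2d* (0.878). Between members r was 0.94 for *Il21r* and *Cish*, 0.93 for *Cish* and *Socs1*, 0.84 for *Socs3* and *Pim1*, -0.89 for *Il7r* and *Il2rb*, and -0.94 for *Il7r* and *Il21r*.

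Other genes of the pathway were read from lists named together with the members: 22 further cytokine receptors, 11 JAK kinases and STAT factors, 15 further feedback genes, 16 genes induced by cytokines through STATs, and 7 ligands. No ligand gene was measured in any of the 8 comparisons shown, and of the 7 only *Il2* and *Il15* were used here.

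Between the tumours, where 1.70% of all measured genes were called higher and 5.44% lower, 2 of 14 measured receptors were higher in CD137 minus and 1 lower. *Ifngr2*, a chain of the interferon gamma receptor, was at 22.2 CPM in CD137 minus, against 12.6 CPM in CD137 plus cells (0.77), *Il6ra* at 41.1 CPM in CD137 minus, against 24.9 CPM in CD137 plus cells (0.70), and *Il10ra* at 54.3 CPM in CD137 minus, against 83.4 CPM in CD137 plus cells (-0.61). The 10 measured JAK and STAT genes and the 7 measured feedback genes had no call, with medians of -0.14 and -0.20 beside -0.13 for all genes. Of 12 measured STAT targets 2 were lower in CD137 minus cells, *Gzmb* (granzyme B) at 124 CPM, against 259 CPM in CD137 plus cells (-1.06), and *Tnfrsf4* at 94.9 CPM, against 137 CPM in CD137 plus cells (-0.52).

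Between the spleens, 3 of 14 measured receptors were lower in CD137 minus and none higher, where 10.3% of all genes were called lower and 1.41% higher. They were *Il18rap* at 14.5 CPM in CD137 minus, against 42.6 CPM in CD137 plus cells (-1.49), *Il10ra* at 20.3 CPM in CD137 minus, against 47.8 CPM in CD137 plus cells (-1.19), and *Il18r1* at 32.4 CPM in CD137 minus, against 57.2 CPM in CD137 plus cells (-0.80). The 2 chains of the IL-18 receptor were thus both lower, as *Il2rb* was. *Stat5a* (-0.51) was the single call of 8 JAK and STAT genes, and *Gzmb* at 12.3 CPM in CD137 minus, against 54.3 CPM in CD137 plus cells (-2.06), that of 8 targets.

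Between tissues, *Stat3* was higher in both tumours, at 336 CPM in tumour CD137 plus, against 104 CPM in spleen CD137 plus cells, and at 240 CPM in tumour CD137 minus, against 74.6 CPM in spleen CD137 minus cells, with a ratio of 1.68 in each. In the CD137 plus comparison 4 of 13 receptors were higher and 6 lower, where 24.2% of all genes were called higher and 17.5% lower. The lower ones included *Il27ra* at 42.1 CPM in the tumour, against 139 CPM in the spleen (-1.69), and *Il6ra* at 24.9 CPM in the tumour, against 77.8 CPM in the spleen (-1.60). In the CD137 minus comparison 5 of 14 were higher and 3 lower, where 22.0% of all genes were called higher and 14.5% lower. Of the targets *Tnfrsf4* was at 137 CPM in tumour CD137 plus, against 3.24 CPM in spleen CD137 plus cells (5.02), and *Pim3* at 98.7 CPM in the tumour, against 21.1 CPM in the spleen (2.17). *Myc*, a transcription factor of cell growth, ran the other way at 43.0 CPM in the tumour, against 116 CPM in the spleen (-1.41), and 4 of 11 targets were higher and 4 lower in the CD137 plus comparison, beside the same 24.2% and 17.5% of all genes.

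*Stat3* was at 489 CPM with *Tnfrsf9* and 204 CPM without it in the CD137 plus tumour (1.25), and at 468 CPM with it and 195 CPM without it in the CD137 minus tumour (1.26). Of the JAK and STAT genes 4 of 11 were higher and 1 lower in the CD137 plus tumour, where 26.5% of all genes were called higher and 4.82% lower. In the CD137 minus tumour 7 of 11 were higher and none lower, where 45.0% of all genes were called higher and 5.35% lower. *Il1r2*, a decoy receptor for IL-1, was at 30.9 CPM with *Tnfrsf9* and 2.17 CPM without it in CD137 plus cells (3.33), and *Il6ra* at 8.2 CPM with it and 39.3 CPM without it (-2.13). The receptor list there had 5 higher and 4 lower of 14, with a median of -0.16 beside 0.27 for all genes. The STAT targets there had 3 higher and 4 lower of 12, with a median of -0.06. By *Tnfrsf9* in CD137 minus cells they had 4 higher and 5 lower of 12, with a median of -0.38 beside 0.44. By *Pdcd1* 1 was higher and 4 lower of 12 in CD137 plus cells, where 31.7% of all genes were called higher and 4.21% lower. In CD137 minus cells 2 were higher and 2 lower of 12, where 44.5% were called higher and 4.40% lower. By *Pdcd1*, *Stat3* was at 463 CPM with it and 176 CPM without it in CD137 plus cells (1.39), and at 402 CPM with it and 128 CPM without it in CD137 minus cells (1.65).

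Markers of other cell types moved with some of these splits. The summed level of 6 B cell genes was 359 CPM in tumour CD137 minus, 533 CPM in tumour CD137 plus, 432 CPM in spleen CD137 minus and 347 CPM in spleen CD137 plus cells, and in the CD137 plus tumour it was 349 CPM with *Pdcd1* and 765 CPM without it. The 4 macrophage genes summed to 166, 262, 117 and 100 CPM in the libraries in the same order, of which *Cst3* carried all in the spleens, where the other 3 were listed at 0. The 4 melanoma genes summed to 30.5 CPM in tumour CD137 minus and 30.8 CPM in tumour CD137 plus cells and were listed at 0 in the spleens, and *Cd4* with *Foxp3* summed to 5.96 CPM or less in every library. The 4 dendritic cell genes summed to 289, 347, 195 and 208 CPM. The pair of NK genes *Klrb1c* and *Klre1* summed to 137 CPM with *Tnfrsf9* and 65.6 CPM without it in the CD137 plus tumour. The higher level of the pair there was 136.9 CPM with *Tnfrsf9* and 61.2 CPM without it. The lower level was 0.42 CPM with *Tnfrsf9* and 4.35 CPM without it, so the sum does not show a rise in both genes. With cells that carried any of the 7 marker genes left out, each member called in the 8 comparisons kept its call, and 1189 of 1262, 2542 of 2766, 2427 of 2464 and 469 of 473 cells were kept. The part of the remaining markers in the results was not tested.

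The members lie on mouse chromosomes 2, 7, 9, 11, 15, 16, 17 and X of mm10, *Il7r* at 15:9505788-9530176, *Il2rb* at 15:78479256-78495271, and *Cish* at 9:107296026-107302784. *Il4ra* at 7:125552120-125579474 and *Il21r* at 7:125603429-125633570 are on one chromosome and the same strand. *Socs3* is at 11:117966079-117970047. These spans are from GENCODE, and those of *Cish*, *Il7r* and *Socs3* begin upstream of their RefSeq windows, so the starts of the annotations differ. On the opposite strand antisense or pseudogene entries overlap *Il4ra*, *Cish* and *Pim1*, and the sources used here do not say whether counting used strand, so these 3 levels could include reads of the overlapping entries.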

How the data were processed

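CD8 T cells of 7 pooled chimaeras per library were profiled with the 10x Chromium 5′ chemistry. The genome mm10, Seurat 3.0 and Cell Ranger 3.0.2 are named in the submitters' processing notes, and no source used here gives their settings, cell filters or strand. The values of the deposited table are natural log values, ln(1 + n), where every one of 9837473 nonzero entries gave a whole n within a relative 1e-12. The sums of n are so even within a library that they look corrected by the authors for depth, a reading from the values and not a stated step, so no count model was used.

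From these values, n was summed over cells per library, class or gate and scaled to 1000000 (CPM). Log2 ratios used 1 CPM as pseudocount. Measured meant 20 CPM and a value in 5% of cells in 1 group, and called meant a log2 ratio of 0.5. Each group is 1 library, so no test was made, although libraries differ in depth. Shares have exact 95% intervals and an expectation at 2900 corrected counts per cell, the lowest total being 2949, so no cell was left out. No doublet caller was run, since the values are corrected. Groups follow the sample titles. The members, lists and gates were chosen with earlier results of these data known. All members are named; list genes are named only if called, at most 4 per list and comparison by the size of the ratio, and for likeness the 3 genes of highest r over 10 groups among genes of at least 20 CPM in 5 of them. The ratio step was tested on simulated data. Alternatives were pseudocounts of 10 and 100 CPM, no low-value filter, ratios relative to the median, marker-free cells, equal cell weights, cells of at least 1000 genes, and gates at 2 or more. Removal of 1 gated class of cells is not reported here. Gene positions are from GENCODE M21, promoter windows from RefSeq on GRCm38.p6. Tables were computed with pandas 2.3.3 on numpy 2.4.6 under Python 3.11.15, intervals with scipy 1.17.1, and plots with matplotlib 3.10.9.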

Additional observations from a re-analysis of the deposited data

Results flagged for a closer look

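*Il4ra* had ratios of opposite sign in the tumours and the spleens, and the tumour ratio was under the size used. It was at 43.1 CPM in tumour CD137 minus, against 35.1 CPM in tumour CD137 plus cells, a log2 ratio of 0.29. In the spleens it was at 37.1 CPM in CD137 minus, against 62.0 CPM in CD137 plus cells, a ratio of -0.72. The ratios differ by 1.01. With marker-free cells they were 0.27 and -0.71. The difference was not tested, since each group is 1 library.

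Within the tumours *Il4ra* also had ratios of opposite sign by *Pdcd1*, both under the size used in the main setting. In cells with *Pdcd1* above 0 it was at 28.3 CPM in CD137 minus, against 31.1 CPM in CD137 plus cells (-0.13, and -0.55 if *Pdcd1* of 2 or more was asked for), and in cells with *Pdcd1* at 0 at 53.3 CPM in CD137 minus, against 40.2 CPM in CD137 plus cells (0.40). The ratios differ by -0.53, and this difference was not tested either. In cells of at least 1000 genes the ratios were -0.10 with *Pdcd1* above 0 and 0.25 with *Pdcd1* at 0.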

How the results depend on the processing

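No paired analysis was possible because each group is 1 pooled library with no replicate number. Of 91 counts of called members under alternatives, 79 stayed within 1.5 times the main count and 12 moved. Of these 10 moved with a pseudocount of 100 CPM, a high value for genes of this level: 0 called against 1 in tumour CD137 minus over plus, 1 against 2 between the spleens, 5 against 8 between CD137 plus tumour and spleen, 4 against 8 by *Tnfrsf9* in CD137 minus tumour cells, 4 against 7 and 3 against 7 by *Pdcd1* in CD137 plus and CD137 minus cells, 0 against 1 and 0 against 2 between the tumours with *Pdcd1* above and at 0, and 1 against 5 and 3 against 7 by *Tnfrsf9* with *Pdcd1* above and at 0. Tumour CD137 minus over plus had 2 called members relative to the median and in cells of at least 1000 genes, *Il7r* being added. Of the 79, 15 held a member not called in the main setting, and with *Pdcd1* of 2 or more the single call between the tumours was *Il4ra* in place of *Il7r*. Of 875 ratios of members 786 stayed and 89 moved by more than the intervals of their shares. Of the ratios past 0.5 in size 0 changed sign, while 27 values of smaller ratios did, 12 of them relative to the median, and 0 of the 27 passed that size. Thinning moved 114 of 120 shares beyond their intervals. Of 90 pair ratios, read again in deeper cells as an alternative chosen after seeing the data, 82 stayed and 8 moved. Low counts limit *Il2ra* and spleen *Cish*.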

Other observations

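Spleen cells with *Gzmk* or *Klrg1*, genes of effector cells, numbered 51 in the CD137 plus library and 38 in the CD137 minus library, too few for a value. In these 51 cells *Il7r* was at 154 CPM, *Il2rb* at 368 CPM, *Cish* at 28.3 CPM and *Pim1* at 226 CPM. Spleen cells with *Ccl5* had *Il7r* at 368 CPM in CD137 minus and 354 CPM in CD137 plus cells, and *Cish* at 9.19 CPM in CD137 minus and 12.6 CPM in CD137 plus cells. Tumour cells with *Ccl5* had *Il7r* at 164 CPM in CD137 minus and 113 CPM in CD137 plus cells, and *Cish* at 64.8 CPM in CD137 minus and 99.8 CPM in CD137 plus cells. Both genes thus also differed between the tissues in cells with *Ccl5*. That gate held 76.9% of tumour CD137 minus, 85.7% of tumour CD137 plus, 48.1% of spleen CD137 minus and 69.1% of spleen CD137 plus cells. It does not match cell states between tissues, and the part of cell makeup was not tested.

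In CD137 minus tumour cells *Socs3* had a value in 11.1% of cells with *Il2ra*, against 30.5% of cells without it, a joint share 0.38 times the product of the single shares, while in CD137 plus tumour cells it was 0.91 times. This rests on 72 CD137 minus cells with *Il2ra* and was not tested.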
